A study of Neurospora crassa with 12 samples.

Results

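Among 9758 genes of Neurospora crassa measured by RNA-seq, 113 had a modestly higher level in wild-type mycelia after sulfur starvation. A gene entered this set when its mean over the 3 starved wild-type libraries was at least 10 FPKM (read fragments scaled to transcript length and to the depth of the library), its ratio to the mean of the 3 wild-type libraries from 24 µM sulfate lay from 1.5 to under 2, and every starved value exceeded every 24 µM value. The rule was met by 124 genes, and 11 of them, of 12 that the rule left out by name, were set aside. The wild-type starvation values thus chose the genes and are given below as a description only. Wild type was strain FGSC 4200, and the cys-3- mutant (Δcys-3 on the labels) carried a partial deletion of cys-3 in which a hygromycin resistance cassette replaced the start of the gene. Mycelia of both strains grew for 24 h at 25°C in constant light in Vogel's minimal medium with methionine at 500 mg/L, were washed, and spent 4 h in medium with 24 µM sulfate or with no sulfur source. Each of the 4 groups held 3 independent cultures. All mutant cultures came from 1 homokaryotic strain, so effects of the partial deletion and of other differences between that strain and wild type cannot be told apart.

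CYS-3 is a bZIP transcription factor that switches on sulfur uptake and assimilation genes when preferred sulfur sources run short. While sulfur is plentiful, a ubiquitin ligase that contains the sulfur controller (SCON) proteins marks CYS-3 for degradation. Sulfate that enters the cell is reduced to sulfide, and its sulfur is built into cysteine and methionine, which are themselves preferred sulfur sources. Cysteine in turn supplies glutathione and the disulfide bonds of secreted proteins, which form in the endoplasmic reticulum with the help of protein disulfide isomerase and chaperones such as BiP.

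The FPKM values of a library summed to between 561602 and 584215, and the intervals deposited with them implied 7325003 to 11249230 reads per library. Replicates correlated at r of 0.982 to 0.997 across genes. The targeted gene cys-3 lay at 58.7 to 66.6 FPKM in wild type with 24 µM sulfate, 132.1 to 162.1 FPKM in starved wild type, 74.9 to 79.7 FPKM in the mutant with 24 µM sulfate and 71.1 to 73.7 FPKM in the starved mutant. Transcripts of the part of cys-3 left in the mutant were therefore still counted, and the level of the gene is only a partial check of the strain labels. Of 8 conidial marker genes looked up by symbol, all 8 were present and none was at 0 in a group. Their summed level was 106.7 to 130.6 FPKM in wild type with 24 µM sulfate, 94.1 to 112.8 FPKM in starved wild type, 132.4 to 164.2 FPKM in the mutant with 24 µM sulfate and 145.0 to 153.1 FPKM in the starved mutant, so it was higher in every mutant library than in any wild-type library. That sum rests mainly on csp-1, csp-2, eas and fl and does not describe the list as a whole. In 24 µM sulfate eas had means of 12.0 FPKM in wild type and 29.8 FPKM in the mutant. For csp-1 these were 44.3 and 50.1 FPKM, for fl 11.8 and 15.3 FPKM, and for csp-2 44.2 and 41.9 FPKM. The genes con-6, con-10 and con-13 had means of at most 1.31 FPKM in every group. The 7 genes of sexual development and mating, all present and none at 0 in a group, summed to 127.4 to 262.7 FPKM in wild type with sulfate, 101.2 to 223.7 FPKM in starved wild type, 89.5 to 130.8 FPKM in the mutant with sulfate and 90.5 to 111.2 FPKM in the starved mutant. Of them the pheromone gene mfa-1 had means of 108.7 and 98.1 FPKM in wild type with and without sulfate and 31.1 and 26.9 FPKM in the mutant. The gene asd-1 did not share this difference, with 62.0 and 44.0 FPKM in wild type and 68.4 and 67.0 FPKM in the mutant. The other genes of this list had means of at most 3.31 FPKM in every group, so the sum rests on mfa-1 and asd-1. The part of either list in the values below was not tested. Of 9 housekeeping symbols, 8 were found, and their summed level was 28085 to 29054 FPKM in wild type with sulfate, 24565 to 26568 FPKM in starved wild type, 27898 to 29605 FPKM in the mutant with sulfate and 28431 to 29086 FPKM in the starved mutant. The sum, lowest in starved wild type, rests mainly on gpd-1 and tef-1, and 5 of the 8 genes had a higher mean in starved wild type than in wild type with sulfate. In bulk RNA, fewer cells of a type and less RNA per cell cannot be told apart.

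In wild type the ratios of starved to 24 µM cells ran from 1.502 to 1.98 with a median of 1.687, while the median over the 5035 tested genes (those with 1 or more group means of 10 FPKM or higher) was 0.975. All 113 genes passed that minimum, which the rule itself guaranteed. Their starved wild-type levels spanned 10.4 to 897.7 FPKM with a median of 50.4 FPKM. At least 100 FPKM was reached by 23 of them, and another 23 stayed under 20 FPKM. The least-covered of the genes still had 37.7 implied reads in its lowest library. Scaled to the wild-type 24 µM mean of each gene, the median gene stood at 0.929, 1.063 and 1.007 in the 3 wild-type libraries with sulfate and at 1.519, 1.698 and 1.77 in the 3 starved ones. The first starved wild-type culture gave the highest starved value for only 5 of the 113 genes, against 40 for the second and 68 for the third. Of the 24 µM wild-type cultures, the first gave the lowest value for 67 genes.

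The cys-3- libraries did not enter the rule, but they are scaled here to the wild-type 24 µM mean. That mean was used by the rule, which favoured low values of it. On this scale the median gene stayed near the wild-type 24 µM level in both media of the mutant. It stood at 1.049, 1.079 and 1.075 in the 3 mutant libraries with 24 µM sulfate and at 1.085, 1.104 and 1.053 in the 3 starved ones, so the mutant libraries of the 2 media interleaved. Over all tested genes the corresponding medians lay between 0.993 and 1.003 in the mutant libraries. Because the reference was part of the rule, the distance from those medians is not read as a strain difference. The spread between cultures was narrowest in the starved mutant, with a median coefficient of variation over the 113 genes of 6.69%, compared to 11.5% in starved wild type. Over all tested genes these were 5.17% and 8.39%.

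**Figure D1:**
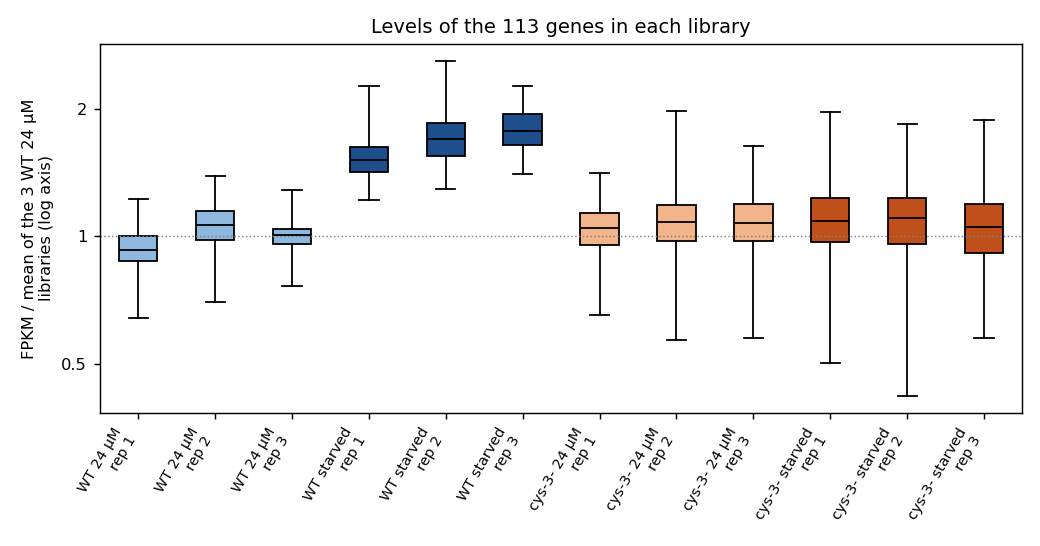
Levels of the 113 genes in each of the 12 libraries, as FPKM divided by the mean of the 3 wild-type 24 µM libraries (log axis). Boxes span the quartiles with the median as a line, and whiskers reach the lowest and highest gene. The starved wild-type boxes were placed high by the rule, with medians of 1.519 to 1.77, and the 6 mutant libraries have medians of 1.049 to 1.104. The wild-type 24 µM mean that divides all values was also used by the rule.

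To ask whether these genes responded to starvation in the absence of intact CYS-3, starved mutant cells were compared to mutant cells with 24 µM sulfate. A limma model of log2(FPKM + 1) was fitted to all 12 libraries, Benjamini-Hochberg adjustment ran over the 5035 tested genes, and an adjusted p under 0.05 made a call. None of the 113 genes was called higher and none was called lower with limma. Across all tested genes 21 were called (0.417%), 16 higher (0.318%) and 5 lower (0.0993%), and beside so low a share a count of 0 among 113 is no result about these genes. At an unadjusted p under 0.05, 10 of the 113 genes were higher and 4 were lower, next to 7.85% and 9.06% of all tested genes. Limma-voom on read numbers implied by the intervals also called 0 of the 113, and 8 of the 5035 tested genes. Such p values set the difference between the media against the spread between the cultures of this experiment. That spread was pooled over all 12 libraries, so it drew also on the wild-type libraries that the rule had used. The p values are therefore not fully independent of the rule. With the mutant libraries only, limma called 2 of the 113 genes higher, and 57 of all tested genes in either direction. Of the 11 genes set aside by name, nit-3, which encodes nitrate reductase, was called higher in the starved mutant, from a mean of 45.7 to 64.1 FPKM (limma with Benjamini-Hochberg adjusted p = 0.0412). That call held in only 7 of 21 alternatives, with adjusted p of 0.0279 to 0.214, and was lost without the first or second mutant culture with sulfate, without any 1 of the starved mutant cultures, without the third wild-type culture with sulfate and without any 1 of the starved wild-type cultures.

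Ratios of mean FPKM in the mutant ran from 0.742 to 1.586 with quartiles of 0.927, 1.004 and 1.099. Of the 113 genes, 58 were above 1 and 55 below 1, and 101 lay from 0.8 to 1.25. On the log2(FPKM + 1) scale the median difference was 0.0086 over the 113 genes and -0.0148 over all tested genes. Libraries of the 2 media did not overlap in the mutant for 12 genes in the upward direction (10.6%, against 12.7% of all tested genes) and for 14 genes in the downward direction (12.4%, against 16.4%). Ratios of the 113 genes in wild type and mutant, plotted against each other, had a Pearson correlation of 0.063 on the log2 scale. The wild-type range in that description was cut by the rule, and genes of 1 library share its errors.

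**Figure D2:**
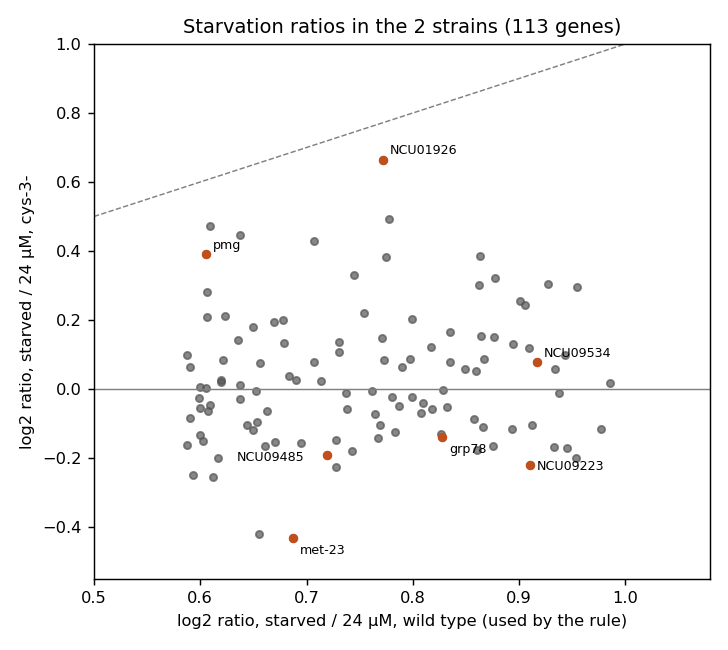
Log2 ratio of mean FPKM, starved over 24 µM, in wild type (horizontal, the contrast of the rule) and in cys-3- (vertical) for each of the 113 genes. The dashed line marks equal ratios, the solid line marks no difference in the mutant, and 7 genes described in the text are in orange. All 113 genes lie below the dashed line, with mutant ratios of 0.742 to 1.586. The rule placed every gene at a wild-type ratio of 1.5 or more. Only 28 of the 5035 tested genes had a mutant ratio that high, so nothing is read from that position.

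Since the test called few genes at all, the intervals are given as well. The 95% interval of the mutant ratio, from the limma fit and without adjustment for the number of genes, had an upper limit under 1.5-fold for 100 of the 113 genes (88.5%), next to 95.5% of all tested genes. For 74 of the 113 genes the upper limit was under 1.25-fold. A ratio of 1.5 or more lay within the interval of the other 13 genes: NCU08397, pmg, NCU06720, NCU11172, NCU01926, NCU09514, NCU04130, NCU08100, NCU02344, NCU09306, al-1, NCU00715 and NCU07966. The limit of 1.5 that admitted a gene in wild type is not the same measure. It was a ratio of mean FPKM, while the intervals are of FPKM + 1, which shrinks the ratios of low genes. With a pseudocount of 0.1 the upper limit was under 1.5-fold for 98 genes. The intervals rest on the same spread pooled over both strains. With the mutant libraries only, the upper limit was under 1.5-fold for 103 genes.

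**Figure D3:**
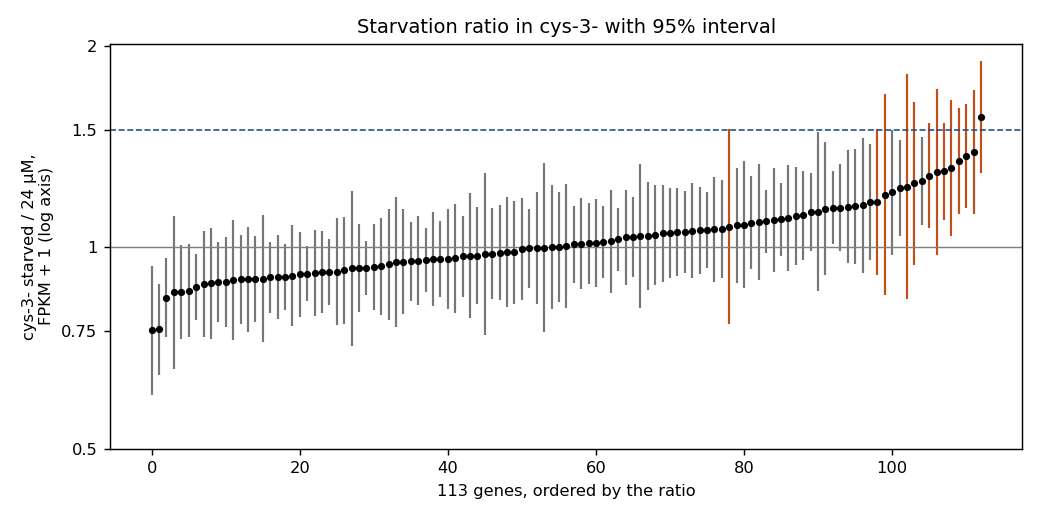
Fitted ratio of FPKM + 1 in starved over 24 µM cys-3- cells (points, log axis) with its 95% interval (bars) for the 113 genes in order of the ratio. The dashed line marks 1.5-fold, and intervals that reach it are in orange. The upper limit is under 1.5-fold for 100 genes and at or above it for 13.

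Of 3 genes for proteins that fold other proteins, grp78 and NCU09223 were among the 10 most abundant of the set. The gene grp78 (NCU03982, chromosome VI, 2329825 to 2332792 on the NC12 assembly) encodes BiP, the Hsp70 chaperone of the endoplasmic reticulum. Its level was 316, 348 and 341 FPKM in the 3 wild-type cultures with 24 µM sulfate and 509, 619 and 655 FPKM in the starved ones. The mutant cultures had 343, 321 and 285 FPKM with 24 µM sulfate and 294, 288 and 279 FPKM when starved. The starved mutant values all lay below those of starved wild type, and they overlapped the 24 µM values of the mutant. Next, NCU09223 (chromosome I, 5899718 to 5902177) is annotated as a protein disulfide isomerase, the enzyme that forms and rearranges disulfide bonds between cysteines. Wild type with 24 µM sulfate had 149, 178 and 163 FPKM of this transcript and starved wild type 259, 319 and 342 FPKM. In the mutant the values were 172, 185 and 153 FPKM with 24 µM sulfate and 148, 145 and 145 FPKM without sulfur. Every starved mutant value was below every other value for the gene, although the difference between the mutant media was not called (ratio 0.859, fitted 0.862-fold with a 95% interval of 0.735 to 1.01 and adjusted p = 0.318). A further Hsp70-family gene, NCU09485 (chromosome II, 4430506 to 4433956), annotated as chaperone DnaK, had 44.5, 40.03 and 44.5 FPKM in wild type with 24 µM sulfate and 57.1, 86.2 and 69.1 FPKM in starved wild type. Its mutant values were 40.7, 38.4 and 34.2 FPKM with 24 µM sulfate and 33.7, 32.04 and 33.4 FPKM starved, so the starved values were just below the others without overlap. For all 3 folding genes the starved mutant stood at 0.467 to 0.483 of starved wild type. The median of the 113 genes was 0.655, and 11 of the 113 were below 0.5, these 3 among them. Starved wild-type values were used by the rule, so this comparison was not tested. The mutant ratios of the 3 folding genes, starved to 24 µM cells, were 0.859 to 0.909. All 3 had an upper 95% limit under 1.5-fold. The calcium pump gene nca-1 (NCU03305, chromosome I, 5258847 to 5262474), whose product is a P-type ATPase of the kind that fills the calcium store of the endoplasmic reticulum, had values of 53.2, 59.01 and 54.2 FPKM in wild type with 24 µM sulfate and 78.7, 83.3 and 93.2 FPKM after starvation. In the mutant it had 59.7, 57.7 and 54.1 FPKM with 24 µM sulfate and 51.1, 49.7 and 48.5 FPKM after starvation, groups that did not overlap. Its fitted mutant ratio was 0.873-fold with a 95% interval of 0.779 to 0.978 and adjusted p = 0.228 in the limma fit, so it was not called.

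A pair of redox genes stood at similar levels in both mutant media. The gene NCU09534 (chromosome V, 4498734 to 4499929) is annotated as the peroxiredoxin HYR1, which in Saccharomyces cerevisiae reduces peroxides through a reactive cysteine and passes the signal to a transcription factor. Starved wild-type cultures had 305, 303 and 351 FPKM of NCU09534 after 154, 191 and 163 FPKM with 24 µM sulfate. The mutant had 184, 166 and 163 FPKM with sulfate and 199, 178 and 165 FPKM without, and these overlapped. Its fitted mutant ratio was 1.05-fold with a 95% interval of 0.907 to 1.23. For NCU03112 (chromosome I, 4599268 to 4601398), annotated as an NADH-cytochrome b5 reductase, the wild-type values were 157, 162 and 151 FPKM with 24 µM sulfate and 222, 259 and 249 FPKM starved. Its mutant values were 149, 172 and 185 FPKM with sulfate and 175, 172 and 162 FPKM without, again with overlap.

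Wall and secreted carbohydrate genes were represented by ncw-4, gh3-5 and gh6-2. The transcript of ncw-4 (NCU02948, chromosome I, 8612277 to 8613628), named for a non-anchored cell wall protein, was at 199, 176 and 178 FPKM in wild type with 24 µM sulfate and 261, 386 and 336 FPKM in starved wild type. Both mutant groups were near the wild type with sulfate, at 155, 189.7 and 185 FPKM with 24 µM sulfate and 184, 176 and 169 FPKM without sulfur. The mutant ratio of ncw-4 was 0.999 (fitted 1.002-fold with a 95% interval of 0.83 to 1.21), among the nearest to 1 of the set. The glycosyl hydrolase genes were much lower. For gh3-5 (NCU05577, chromosome VI, 1452524 to 1455504), of a family that includes beta-glucosidases, the starved means were 15.4 ± 2.19 FPKM in wild type and 9.27 ± 0.959 FPKM in the mutant (SD, n = 3). For gh6-2 (NCU09680, chromosome V, 858215 to 859731), of a family that includes cellobiohydrolases, they were 12.2 ± 1.91 and 6.31 ± 0.401 FPKM.

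**Figure D4:**
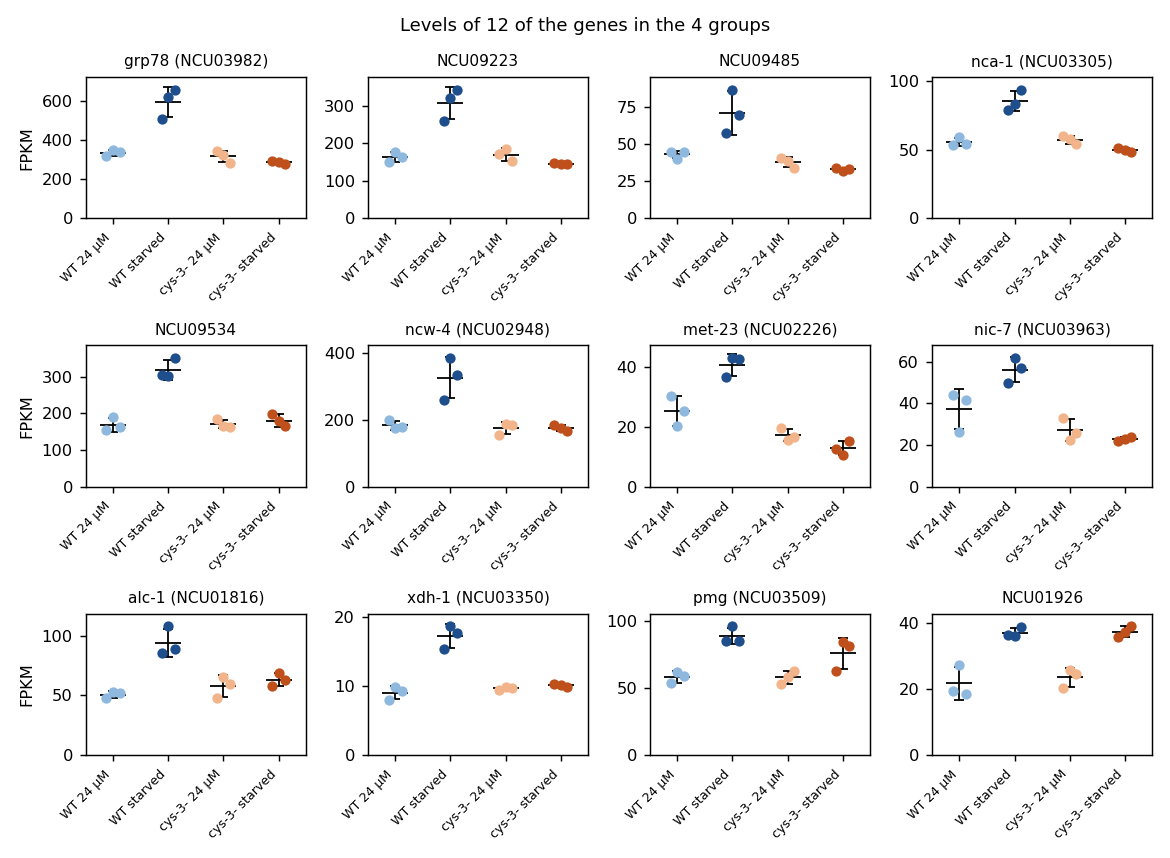
FPKM of 12 of the genes in each library (points), with group means (long dashes) and SD (error bars, n = 3), for wild type (blue) and cys-3- (orange) with 24 µM sulfate (light) or starved (dark). Of these 12 panels, the starved mutant comes nearest to starved wild type in those of pmg and NCU01926. For met-23 the starved mutant has the lowest group mean, with values of 10.6 to 15.2 FPKM. It also has the lowest group mean for grp78, NCU09223, NCU09485, nca-1, nic-7 and ncw-4. For ncw-4 the mutant means are nearly equal, at 176.22 FPKM starved and 176.45 FPKM with 24 µM sulfate.

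The study's sheet of sulfur genes had 71 tested genes (1.41% of all tested genes), and 4 of them were among the 113: met-23, nic-7, tca-16 and aat-2. They made up 5.63% of the sheet and 3.54% of the set, where the set made up 2.24% of all tested genes. This overlap was shaped by the genes left out by name, since 5 of those, eth-1, cys-11, cys-4, NCU09896 and NCU00522, met the rule and are on the sheet. All 4 that remained were on its list of cysteine and methionine metabolism. In the mutant none of the 71 genes was called higher or lower with limma, next to 0.417% of all tested genes. An unadjusted p under 0.05 was found for 9 of the 71, next to 7.85% higher and 9.06% lower among all tested genes. Neither count is read as a result about these sulfur genes.

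Of these 4, met-23 (NCU02226, chromosome VII, 3267254 to 3268763) encodes methylthioribose-1-phosphate isomerase, an enzyme of the salvage cycle that rebuilds methionine from methylthioadenosine. It was present at 30.2, 20.2 and 25.4 FPKM in wild type with 24 µM sulfate and at 36.5, 42.9 and 42.6 FPKM in starved wild type. The mutant had 19.5, 15.8 and 16.7 FPKM with 24 µM sulfate and 12.7, 10.6 and 15.2 FPKM without sulfur. Every mutant value was below every wild-type value, and the starved mutant values were below the others of the mutant. Met-23 had the lowest mutant ratio of the 113 genes, 0.742, and was not called (fitted 0.752-fold with a 95% interval of 0.603 to 0.938 and adjusted p = 0.191 with limma and Benjamini-Hochberg adjustment). It also had the lowest ratio of starved mutant to starved wild type, 0.316. The gene nic-7 (NCU03963, chromosome VI, 2254890 to 2256362), annotated as nicotinic acid-7, had 43.8, 26.0 and 41.7 FPKM in wild type with 24 µM sulfate and 49.9, 61.6 and 56.8 FPKM after starvation. Mutant values were 32.97, 22.6 and 25.9 FPKM with 24 µM sulfate and 22.1, 22.8 and 23.7 FPKM after starvation. The second culture of wild type with sulfate was low, within the range of the mutant. For tca-16 (NCU06211, chromosome III, 1920126 to 1922485), annotated as tricarboxylic acid-16, wild type had 152, 168 and 171 FPKM with 24 µM sulfate and 243, 238 and 267 FPKM without. The mutant had 187, 204 and 201 FPKM with sulfate and 181, 190.4 and 194 FPKM without, so in 24 µM sulfate every mutant culture was above every wild-type one. The aspartate aminotransferase gene aat-2 (NCU07941, chromosome IV, 1281959 to 1284950), whose product moves an amino group between aspartate and glutamate, had starved means of 63.6 ± 10.1 FPKM in wild type and 43.4 ± 3.37 FPKM in the mutant (SD, n = 3). With 24 µM sulfate its means were 40.4 ± 1.78 and 41.2 ± 0.88 FPKM.

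The set also held amino acid genes outside the sulfur lists. The general amino acid permease gene pmg (NCU03509, chromosome II, 432025 to 434576) had 53.9, 62.4 and 59.2 FPKM in wild type with 24 µM sulfate and 85.4, 96.2 and 85.4 FPKM in starved wild type. In the mutant it had 53.3, 58.2 and 62.7 FPKM with 24 µM sulfate and 62.7, 84.3 and 81.5 FPKM starved, where the lowest starved culture and the highest culture with sulfate had the same value to the digits given. The fitted mutant ratio was 1.3-fold with a 95% interval of 1.1 to 1.53 and adjusted p = 0.128, which limma did not call. The gene arg-15 (NCU05622, chromosome VI, 1289400 to 1293564), a gene of arginine metabolism, had 27.96, 38.8 and 32.7 FPKM in starved wild type and 20.7, 20.2 and 20.6 FPKM in the starved mutant. With 24 µM sulfate, arg-15 had 18.7, 18.2 and 18.8 FPKM in wild type and 16.4, 18.6 and 19.9 FPKM in the mutant. The starved mutant cultures were thus above those with sulfate without overlap, and the fitted ratio was 1.12-fold with a 95% interval of 0.959 to 1.3. The glutamine amidotransferase gene NCU01256 (chromosome V, 3391033 to 3393733), of a class of enzymes that take nitrogen from the amide of glutamine, had starved means of 46.6 ± 1.11 FPKM in wild type and 33.6 ± 1.29 FPKM in the mutant. Over the 5 amino acid genes, met-23 and aat-2 included, mutant ratios ran from 0.742 to 1.31.

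Purine breakdown, a route that frees nitrogen, had a pair of genes in the set. Xanthine dehydrogenase, encoded by xdh-1 (NCU03350, chromosome II, 1011165 to 1015822), oxidises hypoxanthine and xanthine to uric acid, and it uses a molybdopterin cofactor. Its transcript was at 7.96, 9.89 and 9.21 FPKM in wild type with 24 µM sulfate and 15.4, 18.6 and 17.7 FPKM in starved wild type. All 6 mutant cultures lay close together, at 9.47, 9.88 and 9.7 FPKM with sulfate and 10.3, 10.1 and 9.85 FPKM without. Allantoicase, encoded by alc-1 (NCU01816, chromosome II, 2330584 to 2332466), cleaves allantoate later in the same route. For alc-1 the wild type had 47.5, 52.4 and 51.7 FPKM with 24 µM sulfate and 85.5, 108 and 88.6 FPKM without, and the mutant had 47.6, 65.5 and 59.6 FPKM with sulfate and 57.8, 68.6 and 62.7 FPKM without. Neither gene was called in the mutant, where the fitted ratios were 1.04-fold with a 95% interval of 0.904 to 1.19 for xdh-1 and 1.1-fold with a 95% interval of 0.919 to 1.32 for alc-1. NCU08824 (chromosome IV, 5114407 to 5116167), annotated with a molybdopterin binding domain, had starved means of 57.95 ± 5.15 FPKM in wild type and 40.8 ± 3.24 FPKM in the mutant (SD, n = 3).

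Among the remaining annotated genes, the carotenoid gene al-1 (NCU00552, chromosome I, 8029857 to 8032395), which encodes the phytoene dehydrogenase behind the orange pigment of Neurospora, had overlapping levels in both starved strains. It had 12.2, 14.9 and 19.4 FPKM in starved wild type and 16.6, 15.2 and 13.4 FPKM in the starved mutant, against 7.1, 9.4 and 10.7 FPKM in wild type and 8.68, 11.9 and 14.03 FPKM in the mutant with 24 µM sulfate. Starved and sulfate-grown mutant cultures overlapped, and the fitted ratio of al-1 was 1.3-fold with a 95% interval of 0.974 to 1.72. For the oxalate decarboxylase gene NCU00865 (chromosome I, 6919124 to 6921343), whose product splits oxalate into formate and carbon dioxide, the starved means were 44.1 ± 11.1 FPKM in wild type and 24.5 ± 3.68 FPKM in the mutant (SD, n = 3). The riboflavin gene rib-3 (NCU01449, chromosome V, 4705718 to 4709289) had starved means of 40.2 ± 4.71 and 32.6 ± 2.81 FPKM, and its mutant level was already high with 24 µM sulfate (34.05 ± 5.1 against 25.4 ± 3.65 FPKM in wild type). Starved means of NCU06697 (chromosome V, 4313772 to 4316735), a predicted serine/threonine phosphatase, were 68.2 ± 5.82 FPKM in wild type and 32.6 ± 3.31 FPKM in the mutant. NCU06883 (chromosome VII, 649429 to 651383), with a forkhead-associated domain, a module that binds phosphothreonine, was lower in the mutant in both media, with 5.46, 4.77 and 4.81 FPKM with sulfate and 5.28, 3.97 and 4.82 FPKM without. Wild type had 9.02, 7.996 and 8.07 FPKM of NCU06883 with sulfate and 11.6, 15.5 and 12.4 FPKM without. The DUF1348 domain gene NCU03152 (chromosome I, 4733716 to 4734648) had starved means of 96.3 ± 11.3 FPKM in wild type and 77.4 ± 6.2 FPKM in the mutant.

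Annotation was thin, since only 25 of the 113 genes carried a symbol or an informative description in the sources used here. The highest of all, NCU08397 (chromosome VII, 1099434 to 1102819), had no annotation. Starved wild-type cultures had 740.1, 844 and 1109 FPKM of it and sulfate-grown ones 387, 683 and 406 FPKM, so only a narrow gap separated the groups. The mutant had 568, 787 and 519.5 FPKM with 24 µM sulfate and 571, 677 and 744 FPKM starved, and here starved wild type and starved mutant overlapped. Its interval was wide, at 1.07-fold with a 95% interval of 0.768 to 1.5. The other abundant genes with no annotation were steadier. NCU06556 (chromosome IV, 1621145 to 1622380) had 624, 548 and 686 FPKM in starved wild type and 426, 428 and 368 FPKM in the starved mutant. With sulfate it had 317, 411 and 339.9 FPKM in wild type and 425, 391 and 428 FPKM in the mutant. Starved means of NCU08137 (chromosome VII, 3500177 to 3501820) were 573 ± 49.1 FPKM in wild type and 432 ± 29.6 FPKM in the mutant, and those of NCU05338 (chromosome II, 1366019 to 1369922) were 433 ± 31.1 and 355 ± 18.4 FPKM. Their mutant ratios were 1.1 and 1.15. Besides ncw-4, NCU03112 and NCU06556, the mutant ratios nearest to 1 among genes of at least 50 FPKM in starved wild type belonged to NCU08738 (1.003), NCU04815 (0.997), NCU03329 (0.993), NCU04676 (0.992) and NCU03255 (0.984). Of these, NCU04815 (chromosome VI, 921426 to 923105) had 48.2, 49.6 and 47.1 FPKM in the mutant with sulfate and 47.0, 48.1 and 49.3 FPKM in the starved mutant, beside 47.9, 46.8 and 44.2 FPKM in wild type with sulfate and 66.2, 81.4 and 87.9 FPKM in starved wild type.

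Because no gene was called, the genes with the highest mutant ratios were singled out after their values were seen. NCU01926 (chromosome I, 1996875 to 1999171) stood apart with 35.7, 37.4 and 38.97 FPKM in the starved mutant and 20.3, 25.8 and 24.5 FPKM in the mutant with 24 µM sulfate. In wild type it had 36.3, 36.2 and 38.7 FPKM starved and 19.4, 27.4 and 18.3 FPKM with sulfate. Its starved levels overlapped between the strains, and in each strain the starved libraries were above those with sulfate. The fitted mutant ratio of NCU01926 was 1.57-fold with a 95% interval of 1.29 to 1.9 and adjusted p = 0.0523, just outside the limma threshold, and it was the only one of the 113 genes with a mutant ratio of mean FPKM of 1.5 or more. It passed the threshold when libraries were scaled to the same upper quartile, when they were quantile normalized, when only the mutant libraries were fitted, or when the second wild-type culture with sulfate was left out. NCU02344 (chromosome VII, 2842202 to 2844057) also passed when only the mutant libraries were fitted, and had 9.01, 9.82 and 10.4 FPKM with sulfate and 13.3, 14.3 and 13.5 FPKM starved in the mutant. Wild-type values of NCU02344 were higher in both media, at 10.7, 11.3 and 14.8 FPKM with sulfate and 18.6, 20.2 and 24.2 FPKM starved. Mutant ratios above 1.25 were found in 10 of the 113 genes (8.85%, against 3.75% of all tested genes) and ratios below 0.8 in 2 (1.77%, against 5.18%), differences that were not tested. Among the 10 were NCU04130 (1.39), NCU09514 (1.36), NCU08100 (1.35) and NCU09306 (1.31). The starved mutant reached or exceeded the mean of starved wild type in 4 genes, NCU04130 (1.17), NCU16742 (1.02), NCU01926 (1.01) and NCU08100 (1.002).

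The strains were then set side by side within each medium. These comparisons share wild-type libraries with the rule and were not tested. In starved cells the ratio of mutant to wild type ran from 0.316 to 1.17 with a median of 0.655, and it was below 1 for 109 of the 113 genes and below 0.5 for 11. Starved wild type and mutant libraries did not overlap for 98 genes, all with wild type higher, next to 26.7% of all tested genes in that direction and 28.5% in the other. Since each gene was chosen for high starved wild-type values, nothing is read from that count. In 24 µM sulfate the ratio of mutant to wild type had a median of 1.079 and lay from 0.8 to 1.25 for 99 genes. The mutant libraries were wholly above wild type for 13 of the 113 genes (11.5%, against 7.45% of all tested genes) and wholly below for 4 (3.54%, against 7.45%), in a contrast where the rule had favoured low wild-type values. Ratios furthest from 1 in 24 µM sulfate were those of NCU02031 (1.54) and NCU06416 (1.54) on the high side and of NCU06883 (0.599), met-23 (0.686) and nic-7 (0.73) on the low side. For NCU06416 (chromosome III, 1324965 to 1326658) the mutant had 58.3, 101 and 76.9 FPKM with sulfate and 78.4, 87.1 and 96.4 FPKM starved, and starved wild type 86.2, 86.3 and 109 FPKM, while wild type with sulfate had 41.2, 57.6 and 54.7 FPKM. The 6 mutant values overlapped those of starved wild type, and all were above wild type with sulfate.

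Genes with stronger and weaker wild-type differences, picked by the same rule at other ratios, were compared in the mutant. The 140 genes at 2-fold or more had a median mutant ratio of 1.023, and the 283 genes at 1.2 to under 1.5 had 0.994, next to 1.004 for the 113 genes. Of the 140, limma called 0 genes in the mutant (4 higher and 2 lower at an unadjusted p under 0.05, and 0 with voom), and of the 283 it called 2, both higher. Over all 5035 tested genes limma called 0.417%, and voom called 8 genes. At an unadjusted p under 0.05, 7.85% of all tested genes were higher and 9.06% lower. Beside so low a share of calls, these counts are no result about the 140 or the 283 genes. The upper 95% limit was under 1.5-fold for 75% of the 140 and 96.5% of the 283, against 88.5% of the 113. Differences between these sets were not tested.

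Along the genome, the 113 genes were spread over the 7 chromosomes in shares like those of all tested genes, from 27.4% against 26.5% on chromosome I to 7.96% against 9.45% on chromosome VII. The median locus was 2059 bases long, compared to 2421 bases for all tested genes. Direct neighbours within the set were NCU03083 and NCU03084, 1049 bases apart, and NCU09534 and NCU09535, 867 bases apart, so 4 genes (3.54%) had a neighbour in the set, compared to 2.56% of all tested genes. NCU09535 (chromosome V, 4500797 to 4503215), next to the peroxiredoxin gene, had the highest wild-type ratio of the set, with 12.3, 12.5 and 12.9 FPKM with sulfate and 20.4, 28.8 and 25.5 FPKM starved. In the mutant it had 11.6, 13.7 and 12.6 FPKM with sulfate and 12.8, 13.1 and 12.4 FPKM starved. A neighbour at 2-fold or more in starved wild type was found for 9 genes (7.96%, compared to 2.88% of all tested genes), a difference that was not tested. One was NCU08363, 776 bases from NCU08364 (21.7-fold in wild type), and another was alc-1, 721 bases from NCU01815 (2.77-fold). Neighbours were the next genes in order at any distance, and that of NCU05653 lay 22483 bases away. NCU09679 and NCU09680 were both next to the same gene, NCU16941, so the 9 are not all separate cases. NCU08363 (chromosome I, 5620528 to 5621875) had 40.3, 56.5 and 49.95 FPKM in wild type with sulfate and 70.6, 71.9 and 78.1 FPKM in starved wild type, while the mutant had 53.2, 55.02 and 52.2 FPKM with sulfate and 50.2, 45.5 and 47.8 FPKM starved. Loci of 31 of the 113 genes (27.4%) overlapped an adjacent gene, as did 27.8% of all tested genes. Reads were counted without strand, so for those 31 genes reads of the neighbour cannot be told apart.

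The rule cut through a continuous range of values. The lowest wild-type ratios inside were those of NCU02095 (1.502), NCU08363 (1.503) and gh6-2 (1.505), and just outside stood NCU00162, NCU00169 and NCU09517, each at 1.499. At the upper limit NCU11172 (1.938), NCU10721 (1.968) and NCU09535 (1.98) were inside, and NCU09659 (2.005), NCU04496 (2.009) and NCU08011 (2.033) were outside. By starved wild-type level the lowest inside were NCU00870 (10.4 FPKM), NCU07966 (11.2 FPKM) and NCU05653 (11.4 FPKM), and the highest outside were ada-6 (9.02 FPKM), NCU09283 (8.96 FPKM) and NCU07083 (8.53 FPKM).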

How the data were processed

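Poly(A) RNA of 12 mycelial cultures was sequenced, 3 per strain and medium as single-end reads. The authors aligned the reads to the predicted transcripts of the genome and computed the deposited FPKM values without strand; the submitters' processing notes name HISAT2 2.1.0, Cufflinks 2.2.1 and Cuffnorm 2.2.1. Groups and replicate numbers came from the sample labels. The files held 9758 genes, of which 9757 matched RefSeq genes of the NC12 assembly by locus tag, and 4 genes with a failed status in a library were left out of the tests. All 113 genes matched. Read numbers were inferred from the interval deposited with each FPKM value, and of 15645 such numbers from 0.5 to 20, 77.1% lay within 0.05 of a whole number.

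Log2 values of the deposited FPKM were taken here after adding a pseudocount of 1. Genes that reached a group mean of 10 FPKM in any group were tested with limma 3.58.1 in R 4.3.3, with 1 mean per group over all 12 libraries and a mean-variance trend, with Benjamini-Hochberg adjustment of the p values. The fit was also run on simulated data with independent noise for each gene and library, and no result here rests on that run. Intervals are at 95%. The wild-type starvation contrast, the strain contrasts and the interaction share libraries with the rule and were not tested for these genes. Alternatives were a pseudocount of 0.1, a minimum of 1 FPKM or none, upper quartile scaling, quantile normalization, mutant libraries only, a replicate block, no variance trend, limma-voom on the inferred reads, a ratio of at least 1.5 beside the adjusted p, and each library left out in turn. For the rule itself they were a minimum of 5 or 20 FPKM, both scalings, the mean ratio alone and each wild-type library left out. Tables and plots used Python 3.11.15 with pandas 2.3.3, numpy 2.4.6, scipy 1.17.1 and matplotlib 3.10.9.

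The genes, lists and tests were chosen with earlier results of these data known. Named genes were the 10 most abundant in starved wild type, those called in the mutant (none) and those on the study's sulfur sheet. The 8 with a mutant ratio nearest to 1 at 50 FPKM or more and the 3 nearest each limit of the rule were also named. So was every gene of the set with a symbol or informative description, instead of the planned limit of 4 per functional list. Lists built on words in product descriptions could not be applied as planned, because the reference table used here carries symbols only. Genes were grouped by symbol and by the descriptions in the study's supplementary sheets instead. No fold or p values of the authors' own tests were used. Genes with the highest and lowest mutant ratios and those furthest from 1 in 24 µM sulfate were added after their values were seen.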

Additional observations from a re-analysis of the deposited data

Results flagged for a closer look

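For 7 named genes, every starved library was above every 24 µM library in wild type and below every 24 µM library in the mutant. The wild-type direction was fixed by the rule that chose the genes, and the difference between the strains was not tested. Their mutant ratios of mean FPKM, starved over 24 µM, were 0.859 for NCU09223 (protein disulfide isomerase), 0.894 for NCU08363, 0.87 for nca-1 (NCU03305, calcium ATPase), 0.875 for NCU09485 (chaperone DnaK), 0.742 for met-23 (NCU02226), 0.748 for NCU04904 and 0.837 for NCU00669. They are among 14 of the 113 genes with this pattern in the mutant (12.4%), and 16.4% of all tested genes had libraries separated in that direction. NCU04904 and NCU00669, which carry no annotation, were named after their values were seen. NCU04904 (chromosome IV, 683646 to 686568) had 26.8, 28.9 and 30.1 FPKM in the mutant with 24 µM sulfate and 18.9, 23.8 and 21.5 FPKM in the starved mutant. None of the 7 was called by limma with Benjamini-Hochberg adjustment, with adjusted p of 0.101 for NCU04904 as the lowest.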

How the results depend on the processing

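The number of genes called higher in the starved mutant was 0 as reported and became 1 with upper quartile scaling, 1 with quantile normalization, 2 with the mutant libraries only, and ranged from 0 to 1 when each library was left out in turn, with 1 (NCU01926) without the second wild-type culture with sulfate. No alternative called a gene of the set lower. The count over all tested genes moved more, from 21 to 57 with the mutant libraries only, 3 with the replicate block, 5 without the variance trend, 8 with limma-voom, 11 with a minimum of 1 FPKM, 12 with no minimum, 7 when a ratio of at least 1.5 was also required, and from 0 to 50 over the libraries left out. It was 0 without the first mutant culture with sulfate or any 1 of the starved mutant cultures, 2 without the second mutant culture with sulfate, 3 and 4 without the third wild-type culture with sulfate or the third starved one, and 50 without the second wild-type or the third mutant culture with sulfate. The median log2 ratio of the 113 genes in the mutant ranged from -0.0112 to 0.0261 over the libraries left out. The upper 95% limit stayed under 1.5-fold for 94 to 103 genes over all alternatives, which for this count were chosen after seeing the data. Replicate numbers were not treated as a pairing in the main fit. Deviations of same-numbered samples correlated at -0.507 to 0.449 over 18 pairs and those of other pairs at -0.437 to 0.485 over 36. Such overlapping ranges cannot decide whether some cultures shared a day. With the number as a block, 0 genes of the set were called and 103 had an upper limit under 1.5-fold. The rule itself gave 129 genes at a minimum of 5 FPKM, 90 at 20 FPKM, 97 with upper quartile scaling (94 shared with the 113), 102 with quantile normalization (97 shared), 119 by the mean ratio alone and 101 to 134 (88 to 102 shared) without each wild-type library. Those 2 scalings moved the median log2 ratio of all tested genes in wild type from -0.04 to -0.06 and -0.05. Of 1092 values for named genes under 21 alternatives, 1088 moved by less than the spread between cultures. None of these genes was called, and 38 of the values, from 18 genes, had the other sign than reported. The log2 ratio of NCU05338 in the mutant went from 0.20 to -0.11 with limma-voom, and the cause was not tested.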
